A study of Mus musculus with 6 samples.

Results

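The genes described here encode proteins of synaptic vesicles and dense core secretory granules. They were chosen by name: 36 genes for synaptotagmins, SNAREs and their regulators, Rab3 proteins, synapsins, vesicle membrane proteins, granins and the reticulon Rtn1. Of these, 35 had a measured transcript assigned to that gene alone, out of 19938 genes in all. Vamp2 shared its transcript with a second gene and was not used. The values come from 6 Affymetrix whole-transcript arrays of cultured mouse cells of strain 129. The starting cells were epiblast stem cells (EpiSCs), pluripotent cells grown in knockout serum replacement with FGF2 (1 array). Neural rosettes of ventral neural tube type were made from them in 5 days with SB431542, Dorsomorphin, Noggin, retinoic acid and sonic hedgehog (1 array). Oligodendrocyte progenitor cells (OPCs) grew from dissociated rosettes in N2B27 with FGF2, PDGF-AA and sonic hedgehog, and were taken at passage 3 and at passage 11 (2 arrays). Oligodendrocytes were made from OPCs of these passages by adding thyroid hormone and withdrawing FGF2 and PDGF-AA (2 arrays). No group carried a genetic change named in the labels, and whether the cultures of the 2 passages came from 1 derivation is not given there.

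In regulated secretion, vesicles are brought to the membrane by Rab3 proteins and active zone scaffolds and are primed by Munc13. They fuse through the SNARE proteins syntaxin, SNAP-25 and synaptobrevin when calcium binds a synaptotagmin. Neurons use this machinery for small transmitter-filled vesicles and for dense core granules, whose cargo includes the granins. Cells of the oligodendrocyte lineage are not secretory neurons, but OPCs receive synapses from axons and both OPCs and oligodendrocytes traffic vesicles to their surface.

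All values are log2 expression values, and differences are log2 differences unless a fold is named. As a yardstick for genes that these cells are not taken to express, the 95th percentile of 1027 olfactory receptor genes lay between 8.23 and 8.46 on the 6 arrays, and the median of all genes between 8.98 and 9.04. Levels of different genes were not ranked against each other, because each transcript has its own probes. Markers of each labelled cell type were checked. Pou5f1, a pluripotency factor, was at 13.02 in EpiSCs and between 7.33 and 7.76 elsewhere. Pax6 and Dach1, of the neural tube epithelium, were at 12.10 and 10.58 in the rosette and at or below 9.59 and 8.23 elsewhere. The mean of 7 such genes was 9.72 in EpiSCs, 11.50 in the rosette, 10.47 and 10.46 in OPCs, and 10.37 and 10.09 in oligodendrocytes. Not all of the 7 were highest in the rosette. Fabp7 was at 13.86 there and at 14.25 and 14.41 in OPCs, and Nes was at 11.69 there and at 12.21 and 11.66 in OPCs. Olig2, a factor of the oligodendrocyte lineage, was at 13.07 and 13.11 in OPCs, and the myelin gene Mag was at 13.27 and 13.24 in oligodendrocytes against 7.97 to 8.05 on the other 4 arrays. The mean of 10 OPC markers was 11.60 and 11.65 in oligodendrocytes, about the 11.53 and 11.64 of OPCs.

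Release genes were widely higher in the rosette than in EpiSCs. The rosette array was at least 2-fold above the EpiSC array for 15 of 35 members (42.9%), and at least 2-fold below it for 0. Among all genes 6.91% were at least 2-fold higher and 3.69% at least 2-fold lower. A difference of at least 4-fold upward was seen in 9 members (25.7%), against 1.75% of all genes. The list's median difference was 0.78, against -0.07 over all genes. Large differences were seen in Rtn1 (4.41), Scg3 (4.37), Syt1 (4.17), Rab3c (3.88) and Snap25 (3.32). In EpiSCs Scg3, Syt1 and Rab3c were below the olfactory receptor yardstick and Rtn1 was close to it, so these differences are taken against values that can be background and give no exact fold. The rosette was the highest of the 6 arrays for 20 members (57.1%), which was so for 19.6% of all genes. Each side of this comparison is 1 array, so it has no test. In such bulk RNA, fewer cells of a type and less RNA per cell cannot be told apart.

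Neuron markers moved with the release genes. Of 14 neuron genes, 13 were at least 2-fold higher in the rosette than in EpiSCs, and the mean level of the 14 was 9.14 in EpiSCs, 12.10 in the rosette, 10.05 and 9.78 in OPCs and 10.14 and 9.76 in oligodendrocytes. The part of neurons in the release gene values was not tested.

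**Figure D1:**
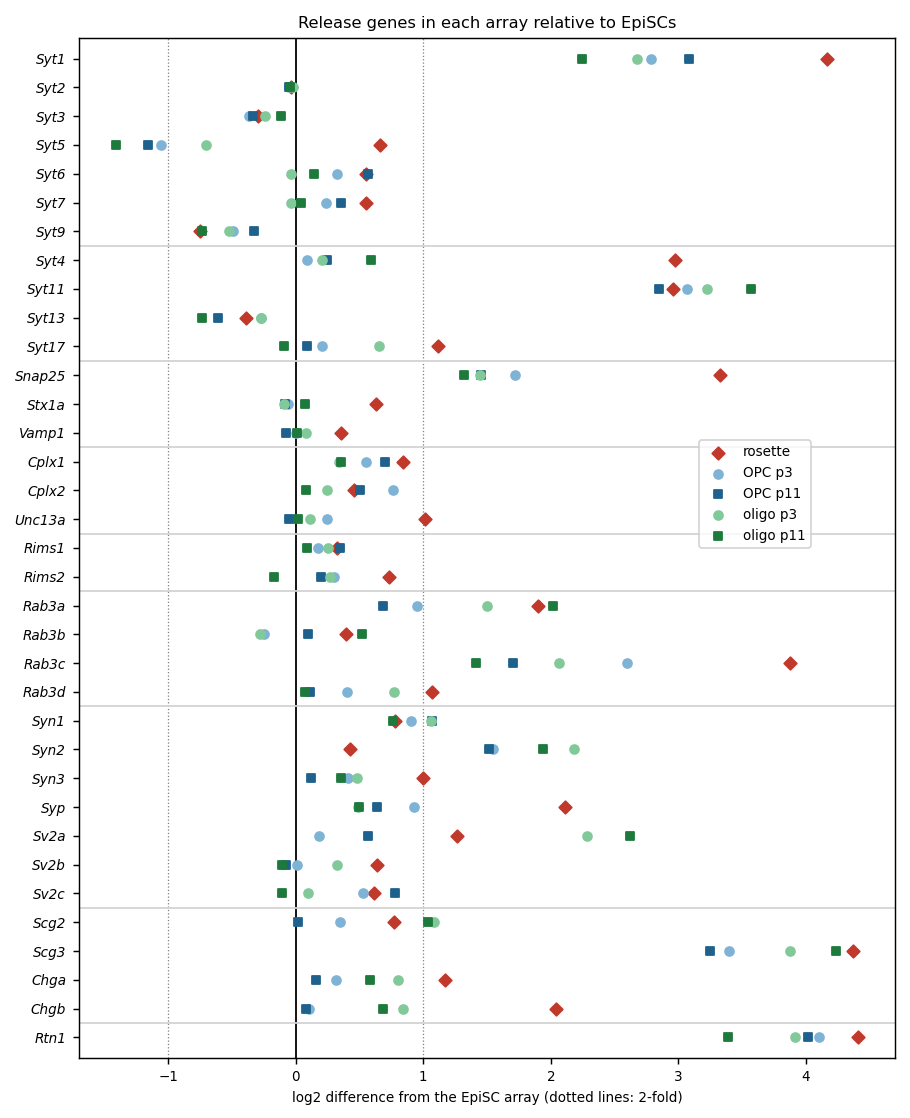
Each row is a member, grouped by role from calcium-sensing synaptotagmins at the top to Rtn1 at the bottom, and each point is 1 array's log2 difference from the EpiSC array. The rosette (red diamonds) lies to the right for most members, while in OPCs (blue) Syt1, Syt11, Snap25, Rab3c, Syn2, Scg3 and Rtn1 stay right of the 2-fold line at both passages.

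OPCs held part of this set above the EpiSC level. In both OPC arrays 7 of 35 members (20%) were at least 2-fold above EpiSCs, namely Syt1, Syt11, Snap25, Rab3c, Syn2, Scg3 and Rtn1. This was so for 4.58% of all genes. The Rab3c value in OPCs at passage 11, 8.33, was next to the yardstick of that array (8.32). In the limma fit of OPCs against EpiSCs, 6 members rose (17.1%, against 4.07% of all genes) and 0 fell (2.93% of all genes), where 7.01% of all genes were called in either direction. They were the 7 genes without Rab3c, for which the adjusted p was 0.0547, or 0.00707 in the fit with passage as a block. Of the 15 members that were at least 2-fold higher in the rosette, 6 were kept in OPCs by this measure (40%). Of all 1377 genes that were at least 2-fold higher in the rosette, 36.8% were kept, so the share kept among release genes was near that of other genes. Which members were called against EpiSCs changed when 1 array was left out, and the counts are given below. When either oligodendrocyte array was left out, the calls were not all rises. Syt5 was then called as lower in OPCs than in EpiSCs (-1.11). Just under the 2-fold limit was Syn1, at 0.90 and 1.07 above EpiSCs in the 2 OPC arrays.

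Against the rosette, 4 members fell in OPCs (11.4%, against 1.87% of all genes) and 1 rose (2.86%, against 1.26%), where 3.13% of all genes were called in either direction. Those that fell were Syt4, Snap25, Syp and Chgb, and the one that rose was Syn2. Of the 35 differences 30 were negative, with a median of -0.59 against 0.02 over all genes. With passage as a block, where 6.05% of all genes were called, 8 members fell, the others being Syt5, Rab3c, Sv2a and Chga. The count rested on few arrays. Only the fall of Syt4 passed without OPC replicate 1 (passage 3) or without OPC replicate 2 (passage 11), and 18 members (51.4%, against 14.5% of all genes) passed when either oligodendrocyte array was left out, which leaves the OPC pair alone to set the spread. The comparisons with EpiSCs and with the rosette share the OPC arrays.

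**Figure D2:**
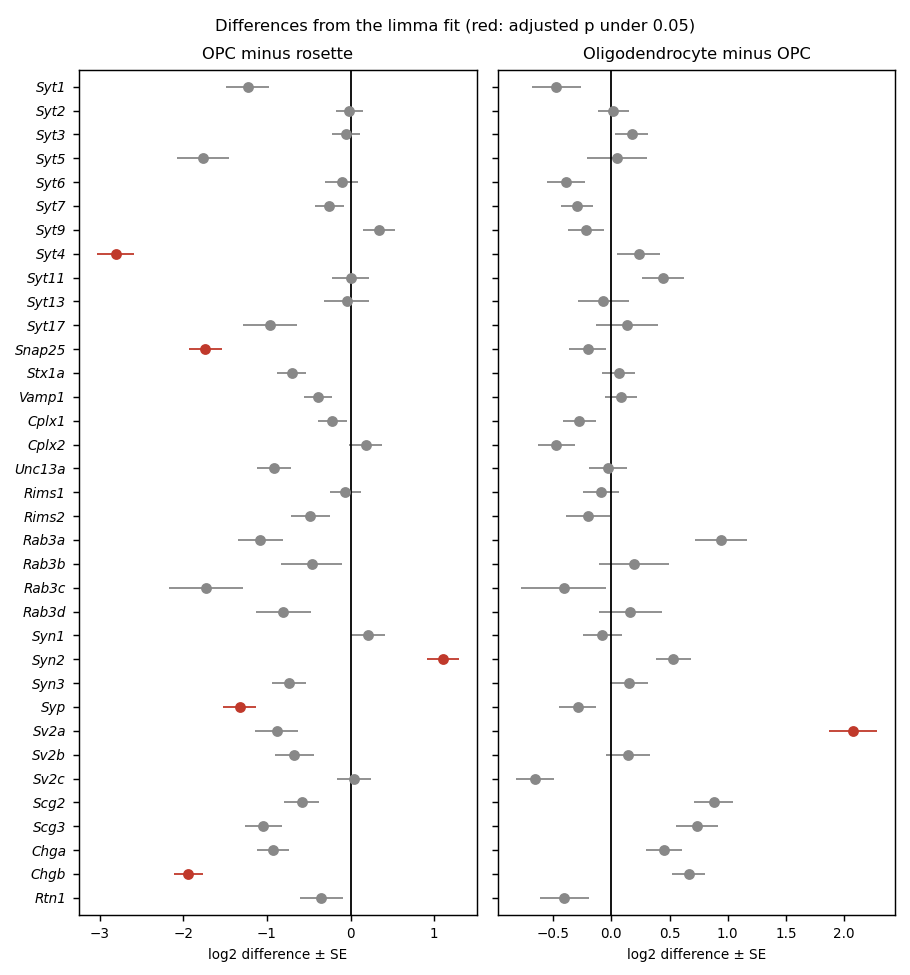
Log2 differences with standard errors for the 35 members, in OPCs against the rosette (left) and in oligodendrocytes against OPCs (right), with adjusted p under 0.05 in red. On the left 30 of 35 points are negative, and on the right Sv2a alone is red, at 2.08.

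Among the synaptotagmins some stayed high in OPCs and others did not. Syt1, the main calcium sensor of fast vesicle release, was at 7.74 in EpiSCs, 11.90 in the rosette, 10.52 and 10.82 in OPCs at passages 3 and 11, and 10.41 and 9.98 in oligodendrocytes. EpiSCs were below the olfactory receptor yardstick and every later array was above it. OPCs exceeded EpiSCs by 2.93 ± 0.25 (SE, 2 OPC arrays against 1 EpiSC array, limma adjusted p = 0.00503). The difference from the rosette, -1.23 ± 0.25, did not pass (adjusted p = 0.0817).

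Syt4 and Syt11 are close relatives in which a substitution in the first C2 domain removes calcium binding there. Both were higher in the rosette than in EpiSCs, by 2.97 and 2.96, but their OPC values differed. Syt4 was at 8.04 in EpiSCs, 11.01 in the rosette, 8.12 and 8.28 in OPCs, and 8.24 and 8.63 in oligodendrocytes. Its OPC values were below the yardstick, with a fall from the rosette of -2.81 ± 0.22 (limma adjusted p = 0.00811). Syt11 was at 9.46 in EpiSCs, 12.42 in the rosette, 12.53 and 12.31 in OPCs, and 12.69 and 13.03 in oligodendrocytes. The 5 arrays after EpiSCs lay within a narrow band, and OPCs exceeded EpiSCs by 2.96 ± 0.22 (7.76-fold, limma adjusted p = 0.00393). The difference of Syt11 between OPCs and the rosette was -0.001 with an SE of 0.22.

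The other synaptotagmins changed less. Syt5, a calcium sensor of dense core granules, was at 10.15 in EpiSCs, 10.82 in the rosette, 9.10 and 9.00 in OPCs, and 9.45 and 8.74 in oligodendrocytes. Its OPC arrays were the only ones of the calcium sensors more than 2-fold below EpiSCs (-1.11 ± 0.31, limma adjusted p = 0.119), and the difference from the rosette was -1.77 ± 0.31 (adjusted p = 0.0573, or 0.032 when passage was a block). Syt17 was 2.16-fold higher in the rosette than in EpiSCs and stood at 8.86 and 8.74 in OPCs. Syt6, Syt7, Syt9 and Syt13 stayed between 8.74 and 10.12 on all arrays. Syt3 lay between 8.13 and 8.49. Syt2 was below the yardstick on all 6 arrays, at 8.15 to 8.21. None of these members passed in the fit by cell type or between passages.

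Of the 3 SNARE genes measured, Snap25 alone was at least 2-fold higher in the rosette than in EpiSCs. Snap25 was at 8.55 in EpiSCs, 11.87 in the rosette, 10.27 and 10.00 in OPCs, and 9.99 and 9.87 in oligodendrocytes. OPCs stood between the earlier stages, with a fall from the rosette of -1.74 ± 0.20 (3.34-fold, limma adjusted p = 0.0175) and a rise over EpiSCs of 1.58 ± 0.20 (3.00-fold, limma adjusted p = 0.0137). The fall had an adjusted p of 0.0582 without OPC replicate 1 and 0.1 without OPC replicate 2, and the rise 0.0755 without OPC replicate 1. Stx1a, the neuronal syntaxin, was at 9.61 in the rosette and between 8.89 and 9.06 on the other arrays. Vamp1, a synaptobrevin, lay between 9.06 and 9.49.

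Among the factors that regulate fusion, the complexins Cplx1 and Cplx2, which clamp and promote SNARE action, were at 9.67 and 9.82 and at 9.27 and 9.01 in OPCs. These were 0.62 and 0.63 above EpiSCs, and neither passed (adjusted p = 0.112 and 0.151). Unc13a, which encodes the priming factor Munc13-1, was at 10.11 in the rosette and between 9.04 and 9.34 elsewhere (OPCs against the rosette -0.92 ± 0.20, limma adjusted p = 0.0941). Unc13a had 2 more transcripts on the array that did not follow this pattern: the first was lowest in the rosette, at 8.75 against 8.88 to 9.05 elsewhere, and the second was at 8.53 there against 8.27 to 8.56. The active zone scaffolds Rims1 and Rims2 lay between 8.35 and 8.70 and between 8.92 and 9.82.

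The 4 Rab3 GTPases, which attach to vesicles and guide their docking, were each higher in the rosette than in EpiSCs. Rab3c was at 6.63 in EpiSCs, 10.51 in the rosette, 9.23 and 8.33 in OPCs, and 8.70 and 8.05 in oligodendrocytes. The passage 11 value was lower than the passage 3 value in both cell types, by 0.89 in OPCs and 0.65 in oligodendrocytes. At passage 11 Rab3c was next to the yardstick in OPCs (8.33 against 8.32) and below it in oligodendrocytes. OPCs exceeded EpiSCs by 2.15 ± 0.45, and their difference from the rosette was -1.73 ± 0.45 (limma adjusted p = 0.139, or 0.0164 when passage was a block). Rab3a was at 8.34 in EpiSCs, 10.23 in the rosette, 9.28 and 9.02 in OPCs, and 9.84 and 10.36 in oligodendrocytes. Both oligodendrocyte arrays of Rab3a were above both OPC arrays (0.94 ± 0.22, limma adjusted p = 0.199). Rab3d was at 9.64 in the rosette against 8.98 and 8.69 in OPCs. Rab3b, at 8.89 to 9.69, was higher at passage 11 by 0.57 ± 0.16 (limma adjusted p = 0.357).

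Syn2 and Sv2a, both on the vesicle, were the only members called higher in OPCs than in the rosette or in oligodendrocytes than in OPCs. Syn2, a synapsin that tethers vesicles to the cytoskeleton, was at 8.58 in EpiSCs, 9.00 in the rosette, 10.12 and 10.09 in OPCs, and 10.76 and 10.52 in oligodendrocytes. Its OPC arrays were above the rosette by 1.11 ± 0.19 (2.15-fold, limma adjusted p = 0.0496) and above EpiSCs by 1.53 ± 0.19 (2.88-fold, limma adjusted p = 0.0131). The first call was lost without either OPC array (adjusted p = 0.242 and 0.264), without dim genes (0.0662) and with a trended variance prior (0.0693), and the second without either OPC array (0.0753 and 0.0732). Syn1 was at 8.46 in EpiSCs, 9.24 in the rosette, and 9.37 and 9.53 in OPCs. Syn3 was at 9.95 in the rosette against 9.36 and 9.07 in OPCs.

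Sv2a encodes a glycoprotein of the vesicle membrane, and the levetiracetam binding site is on this protein. It was at 9.28 in EpiSCs, 10.54 in the rosette, 9.46 and 9.84 in OPCs, and 11.56 and 11.90 in oligodendrocytes. Oligodendrocytes were the highest of the 4 cell types, above OPCs by 2.10 at passage 3 and 2.05 at passage 11. This rise of 2.08 ± 0.21 (4.22-fold, limma adjusted p = 0.0407) was the only member called in oligodendrocytes against OPCs, where 0.396% of all genes rose and 0.0502% fell. It did not pass without OPC replicate 1 (adjusted p = 0.181), without OPC replicate 2 (0.133) or after quantile normalization (0.0807). Without oligodendrocyte replicate 1 (passage 3) 9 members were called (25.7%, against 14.6% of all genes), and without oligodendrocyte replicate 2 (passage 11) 5 (14.3%, against 6.85%). Sv2c differed by -0.66 ± 0.17 (limma adjusted p = 0.224), with both oligodendrocyte arrays, at 8.00 and 7.79, below the yardstick and below both OPC arrays. Sv2b stayed at 7.70 to 8.44.

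Syp, for the vesicle membrane protein synaptophysin, was at 8.44 in EpiSCs, 10.55 in the rosette, 9.37 and 9.08 in OPCs, and 8.93 and 8.94 in oligodendrocytes. It fell from the rosette to OPCs by 1.33 on the log2 scale (SE 0.19, 2.51-fold, limma adjusted p = 0.0342). That call was lost without OPC replicate 1 (adjusted p = 0.0994) or OPC replicate 2 (0.203).

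**Figure D3:**
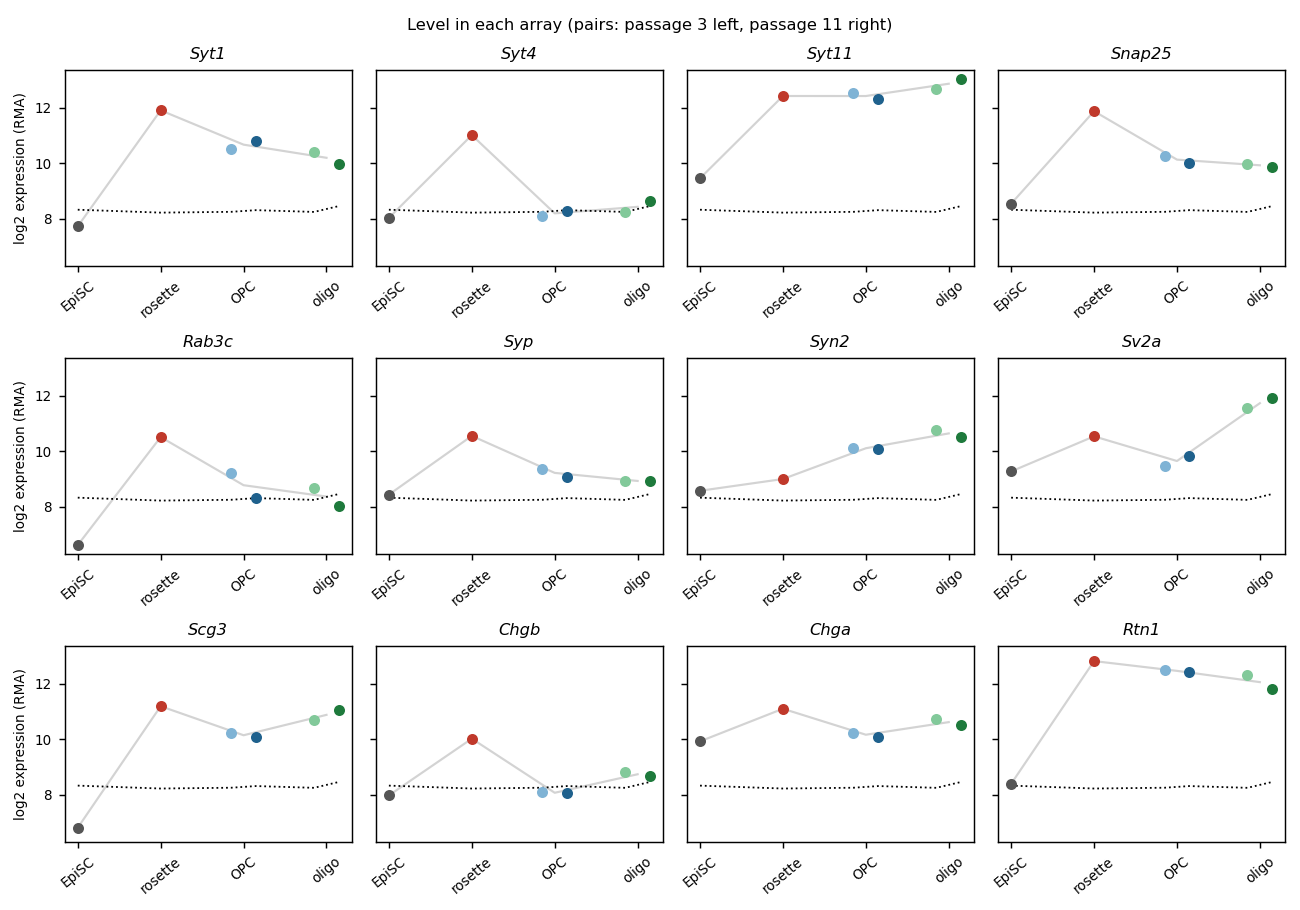
Log2 expression of 12 members on the 6 arrays, with the 2 passages side by side, a grey line through the group means and a dotted line at the 95th percentile of olfactory receptor genes. Syt4 and Chgb return to the dotted line in OPCs, whereas Syt11, Scg3 and Rtn1 stay well above it, and Sv2a is highest in oligodendrocytes at 11.56 and 11.90.

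The granins are acidic cargo and sorting proteins of dense core granules, and all 4 were lower in both OPC arrays than in the rosette and in both oligodendrocyte arrays. The cyclic AMP response element is a known control sequence of granin genes, so 200 bases before the annotated start of each are shown from RefSeq (GRCm38.p6), 5′ to 3′ on the gene's strand. Capitals mark TGACGTCA or its 6-base part TGACGT. The windows are chr12:102554741-102554940 (+) for Chga, chr2:132781442-132781641 (+) for Chgb, chr1:79440027-79440226 (-) for Scg2 and chr9:75684057-75684256 (-) for Scg3.
Chga: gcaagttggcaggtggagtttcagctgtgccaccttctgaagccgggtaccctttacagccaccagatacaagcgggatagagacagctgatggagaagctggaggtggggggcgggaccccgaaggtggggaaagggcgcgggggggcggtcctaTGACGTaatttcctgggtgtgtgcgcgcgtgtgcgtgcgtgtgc
Chgb: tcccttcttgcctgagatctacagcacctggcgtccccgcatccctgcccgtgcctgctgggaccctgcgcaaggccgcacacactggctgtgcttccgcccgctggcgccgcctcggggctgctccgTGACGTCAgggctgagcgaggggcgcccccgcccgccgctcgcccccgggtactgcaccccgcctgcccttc
Scg2: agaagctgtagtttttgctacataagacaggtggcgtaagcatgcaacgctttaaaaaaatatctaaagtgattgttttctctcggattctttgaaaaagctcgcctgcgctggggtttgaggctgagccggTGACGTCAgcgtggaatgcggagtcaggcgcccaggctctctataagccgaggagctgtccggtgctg
Scg3: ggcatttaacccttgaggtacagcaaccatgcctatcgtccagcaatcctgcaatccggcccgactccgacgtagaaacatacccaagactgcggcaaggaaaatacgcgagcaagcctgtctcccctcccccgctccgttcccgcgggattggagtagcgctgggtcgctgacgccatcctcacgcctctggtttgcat
Counted back from the base before the start as -1, the matches begin at -44 in Chga, -72 in Chgb and -68 in Scg2. Chga holds only the 6-base part, and the Scg3 window holds neither. Searched on both strands in windows of this length, TGACGTCA was in 1.47% of 32851 promoters and TGACGT, which it contains, in 5.85%. Promoters were listed for 27 of the 36 genes in 38 windows, of which 3 held TGACGTCA (Chgb, Scg2 and Syn1) and 5 held TGACGT (these with Chga and Rab3a). A match describes letters only.

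Chgb was at 7.98 in EpiSCs, 10.02 in the rosette, 8.09 and 8.06 in OPCs, and 8.82 and 8.66 in oligodendrocytes. Its OPC values were below the yardstick. The fall from the rosette was -1.94 ± 0.17 (limma adjusted p = 0.00953), and it had an adjusted p of 0.054 without OPC replicate 1 and 0.0628 without OPC replicate 2. Scg3, a granin-binding protein, was at 6.82 in EpiSCs, 11.19 in the rosette, 10.22 and 10.07 in OPCs, and 10.69 and 11.06 in oligodendrocytes. OPCs exceeded EpiSCs by 3.32 ± 0.22 (limma adjusted p = 0.0031), and the difference from the rosette was -1.04 ± 0.22 (adjusted p = 0.0864).

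Chga was at 9.92 in EpiSCs, 11.09 in the rosette, 10.24 and 10.08 in OPCs, and 10.72 and 10.51 in oligodendrocytes. Its difference between OPCs and the rosette was -0.93 ± 0.19 (limma adjusted p = 0.081, or 0.0409 when passage was a block). Scg2 was at 8.19 in EpiSCs, 8.96 in the rosette, 8.54 and 8.21 in OPCs, and 9.28 and 9.23 in oligodendrocytes. In each of the 4 granins both oligodendrocyte arrays were above both OPC arrays, by 0.45 to 0.88 on average. None of these 4 differences passed (limma adjusted p from 0.145 to 0.344). Over the whole list 11 members had both oligodendrocyte arrays above both OPC arrays (31.4%, against 19% of all genes), and 10 had them below (28.6%, against 21.1%).

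Rtn1, a reticulon of the endoplasmic reticulum of neurons and neuroendocrine cells, was the member furthest above EpiSCs in OPCs. It was at 8.40 in EpiSCs, 12.81 in the rosette, 12.50 and 12.41 in OPCs, and 12.31 and 11.79 in oligodendrocytes. OPCs exceeded EpiSCs by 4.06 ± 0.26 (limma adjusted p = 0.00284). Their difference from the rosette was -0.35 ± 0.26 (adjusted p = 0.668).

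Between passages 11 and 3 no member was called by limma (0 of 35, and 0% of all genes), and 5 members had an unadjusted p under 0.05 (14.3%, about the 13.9% of all genes). The largest member difference was that of Rab3c, at -0.77 ± 0.13 (limma adjusted p = 0.357). This fit had 1 residual and 3.19 prior degrees of freedom. The SE here therefore rests more on the spread shared over all genes than on how alike the passage differences of the 2 cell types were.

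Other genes of the release pathway were counted from 6 lists with 95 of 100 genes measured. In OPCs against the rosette 12 of the 95 fell (12.6%, against 1.87% of all genes) and 0 rose (limma). In OPCs against EpiSCs 7 rose (7.37%, against 4.07%) and 4 fell (4.21%, against 2.93%). With passage as a block these counts were 15 that fell and 3 that rose, and 10 that rose and 4 that fell. In that fit 6.05% of all genes were called in either direction against the rosette, and 11.6% against EpiSCs. The vesicular transporters, which load transmitter into vesicles, gave 3 of 8 that fell. Slc18a2, for monoamines, was at 8.14 in EpiSCs, 11.26 in the rosette, 7.89 and 7.75 in OPCs, and 7.81 and 7.91 in oligodendrocytes. Its fall from the rosette was -3.44 ± 0.17 (limma adjusted p = 0.00583). Slc17a6, for glutamate, fell by 2.49 (SE 0.18, limma adjusted p = 0.00616), and Slc18a3, for acetylcholine, fell by 2.21 (SE 0.17, limma adjusted p = 0.00785). In OPCs the first 2 were below the yardstick and Slc18a3 was close to it, at 8.26 and 8.37. None of the 8 transporters was called in OPCs against EpiSCs.

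Of 32 other fusion genes, 4 fell from the rosette to OPCs. With passage as a block Stxbp5l and Unc13b fell too, and Sytl2 rose. Napb, a SNAP protein for SNARE recycling, was at -2.58 ± 0.16 (limma adjusted p = 0.00583), and Cadps, a priming factor of dense core granules, was at -1.96 ± 0.28 (adjusted p = 0.033). The calcium-binding factors Doc2b and Doc2a were at -1.28 and -1.27. Cadps was still above EpiSCs in OPCs, by 1.49 ± 0.28 (limma adjusted p = 0.0429). Stxbp2, Vamp8 and Stx3 were called below EpiSCs, at -2.29, -1.52 and -1.12. In OPCs Vamp8 was below the yardstick, at 7.86 and 7.92. Stx3 was next to it at passage 3 (8.26) and below it at passage 11 (8.22). Over the 32 genes 16 differences from EpiSCs were positive and 16 negative, with a median of 0.01. Snap23 and Vamp3 were at 0.24 and 0.26, and neither was called. Of the other 15 active zone genes Lin7a fell by 2.46 (SE 0.18, limma adjusted p = 0.00616), and of 13 other vesicle proteins the synuclein Sncg fell by 3.08 (SE 0.18, limma adjusted p = 0.00583). Lin7a was still above EpiSCs in OPCs, by 1.81 ± 0.18 (limma adjusted p = 0.00732), with the EpiSC value, 7.82, below the yardstick. Rimbp2, of the active zone list, and Scamp5, of the vesicle protein list, were above EpiSCs by 1.01 and 1.53 (limma adjusted p = 0.03 and 0.00955).

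Of 14 other granule genes 3 fell, namely Resp18 at -2.22, Scg5 at -1.29 and Ptprn2 at -1.18. Cpe, for the prohormone processing enzyme carboxypeptidase E, was at 8.65 in EpiSCs, 11.31 in the rosette, 11.28 and 11.39 in OPCs, and 12.02 and 12.37 in oligodendrocytes. OPCs exceeded EpiSCs by 2.69 ± 0.21 (limma adjusted p = 0.00435). Pcsk1, of the same list, went the other way, at 9.68 in EpiSCs, 8.32 in the rosette, and 8.06 and 8.56 in OPCs. Its difference between OPCs and EpiSCs was -1.37 ± 0.25 (limma adjusted p = 0.0407). Of 13 vesicle endocytosis genes 0 were called in OPCs against the rosette, but with passage as a block Dnm3 (1.19) and Synj2 (1.25) rose and Itsn1 (-0.94) fell (limma adjusted p = 0.0258, 0.0309 and 0.0396). In OPCs Dnm3, a dynamin, and Snap91, a clathrin adaptor, rose over EpiSCs by 2.33 and 1.79. Sh3gl3, an endophilin, rose by 1.98 ± 0.22 from OPCs to oligodendrocytes (limma adjusted p = 0.0441). It was the only one of the 95 called there without the block. Sytl2, a Rab27 effector, was at 8.99 and 8.32 in OPCs and 11.46 and 10.63 in oligodendrocytes (2.39 ± 0.35, adjusted p = 0.0882, or 0.0357 when passage was a block).

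**Figure D4:**
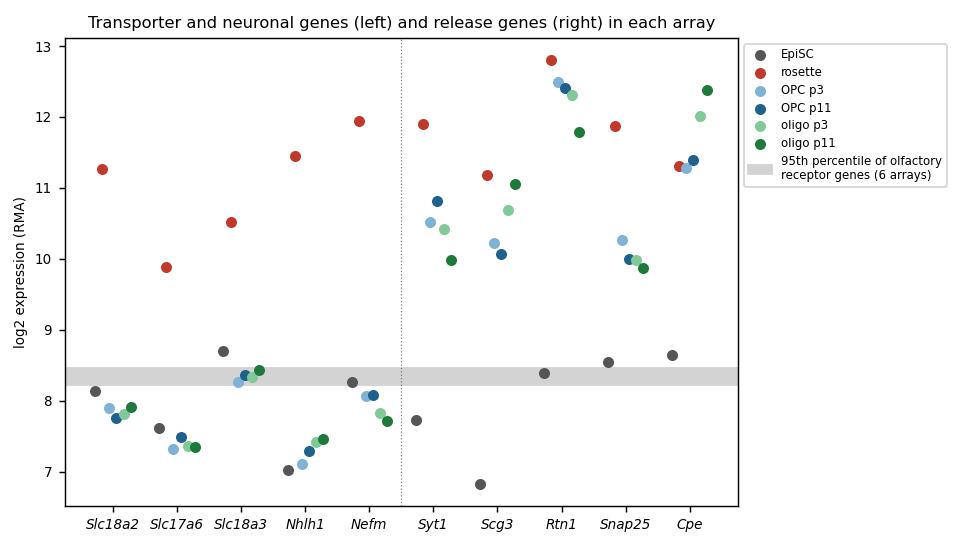
Log2 expression on the 6 arrays of 3 vesicular transporters and 2 neuronal genes (left of the dotted line) and of 5 release genes (right), with a grey band for the range of the olfactory receptor percentile over the arrays. The genes were chosen after their values were seen. In OPCs Slc18a2, Slc17a6, Nhlh1 and Nefm lie below the band, while Syt1, Scg3, Rtn1, Snap25 and Cpe are at 10.00 to 12.50.

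The neuron markers in OPCs were spread from values below the yardstick to values about those of the rosette, with others in between. The neuronal factor Nhlh1 was at 11.45 in the rosette and at 7.10 and 7.29 in OPCs, and the neurofilament gene Nefm was at 11.95 and then at 8.07 and 8.09, all 4 OPC values being below the yardstick. Map2, a microtubule protein, was at 12.62 in the rosette and at 12.77 and 12.93 in OPCs, and Gap43, a growth cone protein, was at 12.39 and then at 12.29 and 12.22. Elavl4 lay in between, at 9.73 and 9.81 in OPCs. It was below the rosette (-1.67 ± 0.18, limma adjusted p = 0.0156) and above EpiSCs (2.77 ± 0.18, adjusted p = 0.00289). Dcx was above EpiSCs by 3.54 ± 0.41 (limma adjusted p = 0.0117), and its difference from the rosette was -1.32 ± 0.41 (adjusted p = 0.213). In all, 6 of the 14 neuron markers fell from the rosette to OPCs (9 with passage as a block). Against EpiSCs 5 rose and 1 fell.

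Markers of other cell types also differed between the oligodendrocyte arrays and OPCs. Of the 14 neuron genes, 5 were higher in oligodendrocytes than in OPCs and 9 lower, with a median difference of -0.15. The 1 called was lower (7.14%, against 0.0502% of all genes): Gap43, at 12.29 and 12.22 in OPCs and 10.78 and 11.00 in oligodendrocytes (limma adjusted p = 0.0453). With passage as a block 0 of the 14 were called (Gap43 limma adjusted p = 0.0556). Among the higher ones, Elavl3 was at 10.39 and 9.71 in OPCs and at 12.04 and 12.18 in oligodendrocytes. Tubb3 was at 8.96 and 8.93 and then at 9.11 and 10.32, and Stmn2 at 10.48 and 7.82 and then at 12.56 and 8.12. The mean of 8 astrocyte markers was 8.69 in EpiSCs, 8.91 in the rosette, 9.90 and 9.54 in OPCs, and 10.41 and 10.15 in oligodendrocytes. Of these 8, Aldoc and Slc1a3 rose from the rosette to OPCs and 0 were called in oligodendrocytes against OPCs. On average 5 of the 8 were higher in oligodendrocytes than in OPCs, and 3 were lower. The lower ones were Slc1a3, Aldoc and Gjb6, at -0.78, -0.33 and -0.05. Among the higher ones, Gfap, the defining astrocyte filament gene, was at 8.11 in both OPC arrays and at 10.50 and 8.69 in oligodendrocytes. S100b was at 8.28 and 8.62 and then at 10.25 and 12.06. The part of these cell types in the oligodendrocyte values of Sv2a and the other members was not tested.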

How the data were processed

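Each deposited value is on a log2 scale. The submitters' processing notes name RMA and Affymetrix Expression Console, with no version given in the sources used here. RMA corrects background, equalises array distributions and summarises probes, and without detection calls a low value can be background, which compresses differences. Of 35556 transcripts, 21789 carried 1 gene symbol, and where a gene had several the one with the highest mean was kept, which left 19938 genes. Of the IDs, 21698 were found in a RefSeq gene table, with 0 symbols changed. limma 3.58.1 in R 4.3.3 was fitted to all genes (lmFit, eBayes, two-sided), with the 4 cell types as groups over 6 arrays (2 residual and 3.32 prior degrees of freedom). The lone EpiSC and rosette arrays were assumed to vary like the OPC and oligodendrocyte pairs. Passage was tested on 4 arrays with cell type as covariate. A gene was called where its p, adjusted by Benjamini and Hochberg over all genes, was under 0.05. The fits were also run on simulated data with known changes and independent noise on every array. Such data cannot check the assumption on the lone arrays or the likeness of arrays of the same passage.

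Separate cultures are not named beyond the passage, so the tests see only how these few arrays vary, and their number limits the precision; in the fit by cell type this includes passage. The passage in the labels pairs OPC and oligodendrocyte arrays, whose passage 3 deviations correlated at 0.50 over genes, and a fit with passage as a block was made. The members, lists and tests were chosen with earlier results of these data known. All members could be named. Values on every array are given for those called or at least 4-fold apart between cell type means, and other pathway genes by count with up to 4 called ones named; further examples and markers were named after their values were seen.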

Additional observations from a re-analysis of the deposited data

Results flagged for a closer look

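For 9 of the 35 members (25.7%, against 35.8% of all genes) the difference between oligodendrocytes and OPCs had opposite signs at the 2 passages. Each passage gives 1 pair of arrays, so the difference between passages was not tested. Passage 11 minus passage 3 of that difference was -0.63 for Syt17 (0.45 at passage 3, -0.18 at passage 11) and -0.61 for Syt5 (0.36 and -0.26). It was -0.46 for Syn1, 0.46 for Rab3b, -0.41 for Rab3d, -0.36 for Sv2b, -0.34 for Rims1, 0.21 for Unc13a and 0.19 for Stx1a.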

How the results depend on the processing

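In OPCs against the rosette 5 members were called, 9 with passage as a replicate block, 2 of 22 without dim genes, 1 to 18 without 1 array and 18 with the arrays of the 2 groups alone. In oligodendrocytes against OPCs the count was 1, with 0 after quantile normalization and 0 to 9 without 1 array. In OPCs against EpiSCs it was 6, with 4 to 14 without 1 array and 14 with the arrays of the 2 groups alone. The paired fit with passage as a block gave 1 and 7 in the last 2 comparisons. Over all genes the calls in OPCs against the rosette went from 624 to 1206 with the block and ranged from 156 to 2897 without 1 array. Those in OPCs against EpiSCs went from 1397 to 2318 and ranged from 470 to 4154, and those in oligodendrocytes against OPCs went from 89 to 83, ranged from 2 to 2919, and were 14 after quantile normalization. Without dim genes the first 2 were 334 and 898. At a 1.5-fold limit 25 members were apart between rosette and EpiSCs (24 higher and 1 lower in the rosette), in place of 15 at 2-fold, and 10 at 3-fold. The members kept in OPCs numbered 5 to 10 over its 6 alternatives, in place of 7. For both counts, the shares of all genes at the 1.5-fold and 3-fold limits are not given here. Of 1138 recomputed member differences 33 changed sign, all of them uncalled on both sides. The passage comparison stayed at 0 members in its 4 alternatives, and with 1 array left out it has no residual degrees of freedom. Values below the olfactory receptor level limit what can be said of Syt1, Syt2, Syt4, Rab3c, Sv2b, Sv2c, Scg2, Scg3 and Chgb in EpiSCs, and of Syt2, Syt3, Syt4, Sv2b and Chgb in OPCs. In OPCs at passage 11 Scg2 was also below this level, and Rab3c was next to it.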

Other observations

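Rest, which encodes the repressor that silences many neuronal genes outside neurons, was at 11.41 in EpiSCs, 9.57 in the rosette, 9.77 and 9.92 in OPCs, and 9.55 and 9.32 in oligodendrocytes. It fell from EpiSCs to OPCs by 1.57 (SE 0.19, limma adjusted p = 0.0131) and did not pass in OPCs against the rosette (0.27 ± 0.19, adjusted p = 0.651). Rcor2, one of the corepressors, fell from the rosette to OPCs by 1.57 (limma adjusted p = 0.0198) and was also lower than in EpiSCs (-0.97 ± 0.19, adjusted p = 0.0454), and the related gene Rcor1 was at 10.91 and 10.88 in OPCs against 10.85 in the rosette.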
